A study of Mus musculus with 6 samples.

Results

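Solute carrier genes are described here in bone marrow of leukemic mice, as all genes of the deposited table whose symbol has the form Slc, a family number, the letter a and a member number. Slc4a1, Slc40a1 and Slc7a11 were left out. The rule took 175 of the 9295 genes in the table, in 44 numbered families, of which 32 belong to Slc25, the mitochondrial carriers. Of the 175, 153 passed the filter on low counts and were tested, 123 outside Slc25 and 30 within it. The samples are 6 bone marrow RNA libraries of mice with acute myeloid leukemia. In the group called Con (n = 3) the genotype is PAPOLA flox/flox, which names a Papola gene flanked by recombination sites. In the group called KO (n = 3) it is PAPOLA KO. The comparison addresses what loss of poly(A) polymerase alpha, the enzyme that tails new messenger RNA, does in the leukemia. The driver of the leukemia, the Cre line, the age and any sort of cells are not given here, and the labels do not say that the libraries of a group came from separate mice, so p-values measure the spread between these libraries, which may be technical.

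Solute carriers are membrane proteins that move amino acids, sugars, metal ions, salts, vitamins and nucleosides across the plasma membrane and organelle membranes, without using ATP directly. They work by letting a solute run down its own gradient, by coupling it to a gradient of sodium or protons, or by exchanging one solute for another. Family numbers group carriers of like sequence, and a family often shares a class of substrate. In blood cells they set the supply of glucose, amino acids, iron and zinc, and macrophages, neutrophils and red cell precursors each carry different ones.

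Column totals were 11253932 to 11436216 counts in Con and 8875022 to 9768143 in KO. Levels are in CPM, counts scaled to a common library size with TMM factors. Con replicates 2 and 3 were far more alike (chi-square per degree of freedom 1.68) than the other pairs of a group (17.7 to 23.7), so Con replicate 1 often stands apart from them. Papola itself was at 284, 297 and 291 CPM in Con replicates 1, 2 and 3 and at 342, 361 and 314 CPM in KO replicates 1, 2 and 3, a log2 fold change of 0.22 (SE 0.08) that was -0.13 with library size as the only scaling. Counts over the deleted exons were not analysed here, so this level does not check the labels, and every direction below is that of the libraries labelled KO against those labelled Con. The labelled cell type, leukemia, was looked at through 3 progenitor genes. Kit was at 56.4 CPM in Con and 41.6 in KO and Hoxa9 at 14.3 and 9.22, both lower by the test used below. Myb was at 135 and 161 and did not pass that test. Cd34 and Meis1, listed with them beforehand, are not among the genes of the table. Cell type markers moved with the groups. All 10 late neutrophil markers, all 5 promyelocyte markers and all 9 erythroid markers in the table were higher in KO, and 7 of 9 macrophage markers were lower, with C1qa and C1qb the 2 that were higher. Late neutrophil markers took 0.268% to 0.276% of counts in Con and 14.4% to 16.6% in KO, erythroid markers 0.00736% to 0.0143% and 1.45% to 2.14%, and macrophage markers 2.39% to 3.37% and 0.0530% to 0.0981%. Both B cell markers and all 5 T and NK cell markers were higher too, from summed levels of at most 1.02 and 1.44 CPM in Con to 22.9 to 80.3 and 61.6 to 88.6 CPM in KO, with Ncr1 at 0 in Con. Of 5 stromal and endothelial markers 4 were higher, while Pecam1 was lower, at a mean of 371 CPM in Con and 79.3 in KO. Their sum was 378 to 384 CPM in Con, most of it Pecam1, and 284 to 482 CPM in KO. Among the higher ones, Col1a1 had a mean of 2.72 CPM in Con and stood at 95.3, 308 and 56.9 CPM in KO replicates 1, 2 and 3. The part of these cells in the results below was not tested.

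More solute carrier genes fell than rose with the KO label. Among the 153 tested, 92 were lower and 45 higher, and 16 did not pass (quasi-likelihood test of edgeR, with p adjusted by Benjamini-Hochberg, at 0.05). Over all 8358 genes tested, 82% passed, 39.6% higher and 42.4% lower, while among the tested carriers 89.5% passed, 29.4% higher and 60.1% lower. Outside Slc25 the split was 32 higher and 81 lower of 123, with a median log2 fold change of -1.11 beside -0.06 for all genes tested. Within Slc25 it was 13 higher and 11 lower of 30, with a median of 0.02. The filter lets in genes that are high in one group alone, and 15 tested members had fewer than 10 counts in every library of a group (9 of them in KO and 6 in Con), so these counts describe the tested members only. In bulk RNA, fewer cells of a type and less RNA per cell cannot be told apart.

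Falls of at least 2-fold were seen in 70 tested members and rises of that size in 32, beside 23.8% and 22.8% of all genes tested. At least 8-fold, 15 were lower and 7 higher, beside 5.9% and 6.48%. In 92 tested members every KO library lay below every Con library, and in 45 every KO library lay above, beside 44% and 40.5% of all genes tested. When library size alone was used for scaling, the median of all genes shifted by -0.35. Then 103 members were lower and 39 higher, beside 4476 and 2488 of 8358 genes tested. With Con replicates 2 and 3 summed as 1 sample, 78 were lower and 33 higher outside Slc25, and 10 and 12 within it. Over all genes that setting gave 3356 lower and 3201 higher of 8419 tested.

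**Figure D1:**
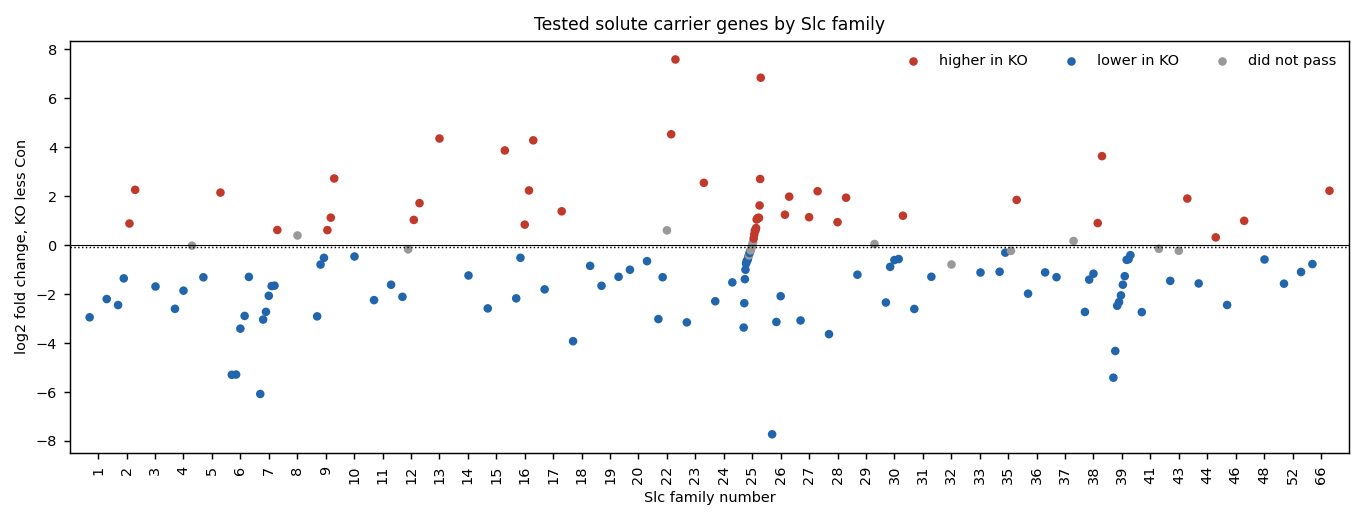
Log2 fold change (KO less Con, vertical axis) of each tested solute carrier gene, one point per gene, by Slc family number (horizontal axis), coloured by call, with the dotted line at the median of all genes tested. The 10 tested Slc39 genes and the 5 tested Slc6 genes are all below 0, and Slc25 spreads on both sides.

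Together the 175 genes took 1.52% to 1.53% of counts in Con and 0.772% to 0.874% in KO. The summed level went from 13483 ± 442 CPM in Con to 9204 ± 715 CPM in KO (SD, n = 3 each), 1.46-fold lower, with no overlap between the groups (exact permutation test, two-sided, p = 0.1, the smallest that 3 libraries against 3 can give). Amino acid carriers made up the widest gap. Their summed level was 4006, 4305 and 4274 CPM in Con replicates 1, 2 and 3 and 1426, 1351 and 1788 CPM in KO, and their share of all solute carrier counts went from 30.9% to 31.3% in Con to 15.7% to 17.9% in KO. Metal carriers went from 2108 to 2435 CPM in Con to 824 to 966 CPM in KO. Slc25 genes went the other way, from 2546 to 2617 CPM in Con to 2791 to 2937 CPM in KO, a rise that turns into a fall as a plain share of counts (0.290% to 0.298% in Con, 0.245% to 0.258% in KO). Their share of solute carrier counts was 18.9% to 19.6% in Con and 29.4% to 33.4% in KO.

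**Figure D2:**
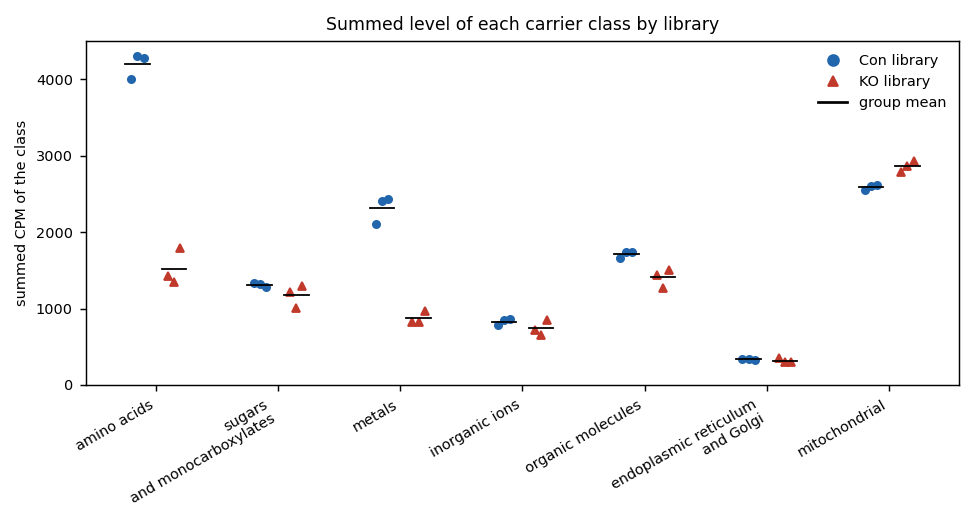
Summed CPM of each carrier class (vertical axis, from 0) in each of the 6 libraries, with circles for Con, triangles for KO and bars for group means. Amino acid and metal carriers are lower in every KO library, sums of sugar carriers and of inorganic ion carriers overlap between the groups, and mitochondrial carriers are slightly higher.

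Families often held members of both directions. Of 36 families with 2 or more tested carriers, 21 held both higher and lower members, 15 held lower members without a higher one, and 0 held higher members alone. Of all tested members 60.1% were lower and 29.4% higher, beside 42.4% and 39.6% of all genes tested. Families differ in size, and their split was not tested against that of genes grouped otherwise. The values of each family follow, grouped into classes by family number and not by the substrate of each member, so that the amino acid class holds the creatine carrier Slc6a8 and the nucleobase carrier Slc43a3, and the mitochondrial iron carriers stand in Slc25. For each gene the 3 values given for a group are those of replicates 1, 2 and 3 in that order, in CPM, and CPM is not corrected for gene length, so levels of different genes are not compared. A value marked log2 is the log2 fold change, KO less Con, with its standard error (SE), and ± after a group mean is the SD of its 3 libraries.

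Amino acid carriers of the Slc7 and Slc3 families were lower with a single exception. Slc7 holds the cationic amino acid carriers and the light subunits that pair with Slc3a2 (CD98), the heavy subunit. Slc7a2 (gene ID 11988) was at 274, 319.8 and 313 CPM in Con and at 4.44, 5.303 and 3.602 CPM in KO, a log2 change of -6.08 ± 0.14 (SE), adjusted p = 2.39e-09, or 67.7-fold lower. Slc7a2 encodes the arginine, lysine and ornithine carrier CAT2 and had the steepest fall among tested amino acid carriers. Slc7a1 (gene ID 11987) was at 129, 119.7 and 113 CPM in Con and at 39.8, 34.5 and 40.7 CPM in KO, a log2 change of -1.65 ± 0.10 (SE), adjusted p = 3.08e-07, and encodes the broadly expressed cationic carrier CAT1. Every KO library lay below every Con library for both. Slc3a2 (gene ID 17254) was at 519, 491 and 486 CPM in Con and at 115, 148 and 214 CPM in KO, a log2 change of -1.65 ± 0.20 (SE), adjusted p = 4.88e-05. Slc7a5 (gene ID 20539) was at 316, 195 and 198 CPM in Con and at 57.6, 49.3 and 62.4 CPM in KO, a log2 change of -2.07 ± 0.20 (SE), adjusted p = 1.12e-05. Slc7a5 encodes LAT1, the leucine carrier of activated and dividing cells. In Con it was highest in replicate 1 and alike in replicates 2 and 3. Slc7a8 (LAT2) went from 229 ± 4.21 to 34.7 ± 9.97 CPM (SD, n = 3), -2.72 (SE 0.17) on the log2 scale, and Slc7a6, a light subunit for cationic amino acid exchange, from 57.3 ± 1.59 to 18.1 ± 4.07 CPM, -1.67 (SE 0.14). Slc7a4 was at 8.48, 8.48 and 7.52 CPM in Con and 1.05, 0.493 and 1.42 CPM in KO. The exception was Slc7a7 (y+LAT1), the sister light subunit of Slc7a6, at 23.2, 20.03 and 20.9 CPM in Con and 23.2, 35.5 and 40.3 CPM in KO (log2 0.62, SE 0.19, adjusted p = 0.0112). Its groups overlap, and with library size as the only scaling it did not pass (0.26, adjusted p = 0.213).

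All 5 tested Slc6 genes, sodium- and chloride-coupled carriers, were lower, beside 42.4% of all genes tested. Slc6a8 (gene ID 102857) was at 113, 166 and 157 CPM in Con and at 3.505, 3.95 and 3.602 CPM in KO, a log2 change of -5.30 ± 0.19 (SE), adjusted p = 1.86e-08. Slc6a8 carries creatine. Slc6a12 (gene ID 14411) was at 182, 268 and 274 CPM in Con and at 6.66, 4.93 and 6.95 CPM in KO, a log2 change of -5.29 ± 0.21 (SE), adjusted p = 4.48e-08. Slc6a12 carries betaine and GABA, and its closest neighbour in function, Slc6a13, was at 53.5, 61.4 and 64.999 CPM in Con and 10.2, 7.03 and 6.95 CPM in KO (log2 -2.89, SE 0.16). For Slc6a8 and Slc6a12 the KO libraries held at most 6.95 CPM while the lowest Con value was 112.7 CPM, and Con replicate 1 was the lowest of the Con libraries for both. The taurine carrier Slc6a6 kept a high level in both groups, 489, 585 and 572 CPM in Con and 212, 187 and 272 CPM in KO, a log2 change of -1.30 ± 0.14 (SE), adjusted p = 1.75e-05. Slc6a15 had 22, 23 and 26 counts in Con and 4, 0 and 0 in KO (log2 -3.41, SE 0.68).

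Glutamine and neutral amino acid carriers of Slc38 split. Slc38a5 (gene ID 209837) was at 1.89, 1.89 and 1.76 CPM in Con and at 27.5, 16.8 and 25.2 CPM in KO, a log2 change of 3.64 ± 0.23 (SE), adjusted p = 4.93e-07, 12.5-fold higher. Slc38a5 encodes SNAT5, a carrier of glutamine and other neutral amino acids. Slc38a7 (gene ID 234595) was at 63.7, 76.2 and 68.7 CPM in Con and at 9.11, 10.2 and 12.2 CPM in KO, a log2 change of -2.73 ± 0.13 (SE), adjusted p = 8.10e-08. Slc38a7 works in the lysosome membrane, where it exports glutamine. Slc38a1 (SNAT1), a plasma membrane glutamine carrier, went from 219 ± 7.85 to 82.5 ± 15.7 CPM (log2 -1.41, SE 0.12), Slc38a10 from 279.7 ± 0.983 to 125 ± 9.93 CPM (log2 -1.17, SE 0.08), and Slc38a6 rose from 107 ± 6.88 to 201 ± 30.3 CPM (log2 0.90, SE 0.11). In all 5 the KO libraries lay on one side of the Con libraries, as in 84.5% of all genes tested.

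Promoters of the 2 Slc38 genes that moved furthest apart are shown because both hold the same motif near the start site. They are the 250 bases before the RefSeq start site in GRCm38.p6, 5′ to 3′ on the gene's strand, at chrX:8271131-8271380 (+ strand) for Slc38a5 and at chr8:95853492-95853741 (- strand) for Slc38a7. Capitals mark the hypoxia response core ACGTG, searched on both strands. Here the matches on both strands overlap and spell CACGTG, which is also the E-box letters, starting 30 bases before the start site in Slc38a5 and 34 before it in Slc38a7.
Slc38a5: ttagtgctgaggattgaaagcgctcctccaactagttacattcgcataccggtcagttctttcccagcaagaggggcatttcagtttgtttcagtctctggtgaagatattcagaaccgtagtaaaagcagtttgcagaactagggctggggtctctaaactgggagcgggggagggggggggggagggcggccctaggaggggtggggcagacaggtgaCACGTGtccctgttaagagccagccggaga
Slc38a7: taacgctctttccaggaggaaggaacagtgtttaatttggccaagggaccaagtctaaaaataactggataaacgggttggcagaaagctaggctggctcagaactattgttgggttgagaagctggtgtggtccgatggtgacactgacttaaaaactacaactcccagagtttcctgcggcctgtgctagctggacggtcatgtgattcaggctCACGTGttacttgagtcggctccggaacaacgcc
Windows of this length were found for 132 of the 175 genes. ACGTG was in 17 of 64 windows of lower members (26.6%), in 9 of 36 of higher members (25%), in 21.4% of windows of all tested genes and in 16.6% of all 27025 RefSeq windows. TGATGNAA, letters bound by ATF4 with its partners at amino acid response genes, was in 4 of 36 windows of higher members and in 0 of 64 of lower members, beside 2.1% of tested genes. The 4 were Slc7a7, Slc9a9, Slc23a3 and Slc26a10, of which only Slc7a7 is in the amino acid class. Of the 22 lower amino acid carriers only 12 had a window, 0 of them with these letters, so no pattern of amino acid carriers can be read from this. The matches are of letters and say nothing of which factor is bound.

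Further amino acid and peptide carriers also split within families. Slc15a3 (gene ID 65221) was at 472, 584 and 583 CPM in Con and at 94.9, 78.9 and 99.8 CPM in KO, a log2 change of -2.58 ± 0.12 (SE), adjusted p = 9.24e-08. Slc15a3 is a proton-coupled histidine and peptide carrier of lysosomes. Slc15a2 (gene ID 57738) was at 1.06, 3.14 and 4.08 CPM in Con and at 27.1, 17.9 and 76.3 CPM in KO, a log2 change of 3.87 ± 0.62 (SE), adjusted p = 3.39e-04. Slc15a2 encodes PEPT2, a plasma membrane peptide carrier, and its KO libraries differ more among themselves than those of most members, with replicate 3 the highest. In Slc43, the neutral amino acid carrier Slc43a1 (LAT3) rose from 8.98 ± 1.28 to 33.7 ± 3.26 CPM (log2 1.91, SE 0.14) and Slc43a3, a purine nucleobase carrier, fell from 235 ± 10.8 to 85.5 ± 9.78 CPM (log2 -1.46, SE 0.10). Slc43a2 (LAT4) did not pass, at 95.1, 105 and 108 CPM in Con and 71.8, 86.7 and 106 CPM in KO, but did without KO replicate 3 (-0.38, adjusted p = 0.00968). In Slc66, Slc66a1, which exports cationic amino acids from lysosomes, went from 21.7 ± 3.27 to 12.7 ± 0.977 CPM (log2 -0.77, SE 0.15), and Slc66a2 went up from 24.1 ± 2.35 to 113 ± 17.4 CPM (log2 2.23, SE 0.13).

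Slc1a4 (ASCT1), a carrier of alanine, serine and cysteine, had 220, 129 and 129 counts in Con and 14, 11 and 14 in KO (log2 -2.95, SE 0.29). The glutamate carrier Slc1a2 had 35, 16 and 16 and 2, 4 and 3 (log2 -2.20, SE 0.51), with Con replicate 1 the highest for both genes. The amino acid carrier Slc36a4 fell from 83.2 ± 9.47 to 21.1 ± 2.31 CPM (log2 -1.98, SE 0.12). Slc36a2 was at 1.44, 3.93 and 3.44 CPM in Con and 1.64, 1.23 and 1.16 CPM in KO, overlapping groups with an adjusted p of 0.0317 that ran from 0.0743 to 0.117 under 6 alternatives, among them each fit without Con replicate 2 or 3 or KO replicate 2 or 3. The vesicular carrier Slc32a1 did not pass, with 32, 20 and 25 counts in Con and 11, 13 and 5 in KO. By class, 22 of 30 tested genes of the amino acid carrier families were lower and 6 higher, beside 42.4% and 39.6% of all genes tested, with a median log2 fold change of -1.65.

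**Figure D3:**
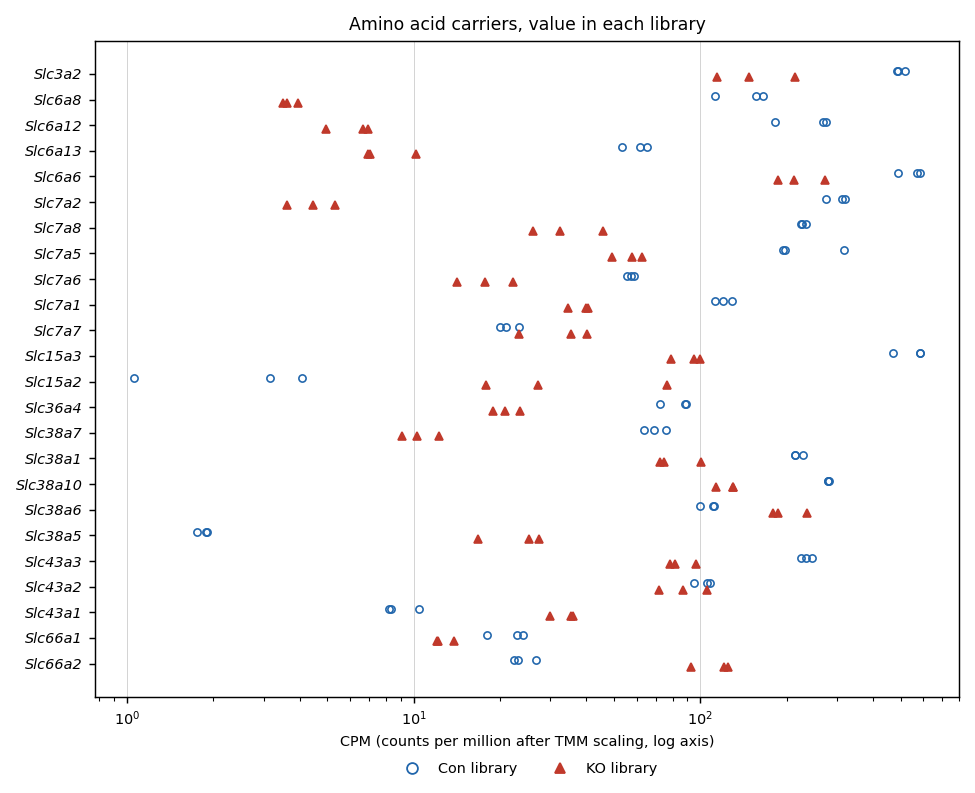
CPM in each library (horizontal log axis) of amino acid carriers whose group means sum to at least 20 CPM, with open circles for Con and triangles for KO, ordered by family and fold change. Slc6a8, Slc6a12 and Slc7a2 stand under 10 CPM in KO, and Slc15a2, Slc38a5, Slc38a6, Slc43a1 and Slc66a2 are higher in each KO library than in any Con library.

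Glucose carriers of Slc2 moved in opposite directions. Slc2a1 (gene ID 20525) was at 463, 487 and 493 CPM in Con and at 74.998, 78.8 and 111 CPM in KO, a log2 change of -2.45 ± 0.14 (SE), adjusted p = 3.24e-07. Slc2a1 encodes GLUT1, the basal glucose carrier of most cells. Slc2a3 (gene ID 20527) was at 519.7, 456 and 421 CPM in Con and at 919, 729 and 934 CPM in KO, a log2 change of 0.89 ± 0.12 (SE), adjusted p = 8.83e-05. Slc2a3 encodes GLUT3, a high-affinity glucose carrier of neurons and white blood cells. Every KO library lay below the Con libraries for Slc2a1 and above them for Slc2a3. Slc2a6 (GLUT6), a carrier of lysosomal membranes in macrophages, went from 114 ± 1.67 to 44.5 ± 11.4 CPM (log2 -1.36, SE 0.16). Slc2a4, the insulin-responsive GLUT4, had 3, 8 and 6 counts in Con and 19, 13 and 21 in KO (log2 2.26, SE 0.41), a rise at a very low level.

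Monocarboxylate carriers of Slc16 move lactate, pyruvate and related acids. Slc16a1 (MCT1) was at 129, 118 and 112 CPM in Con and 78.04, 74.6 and 98.3 CPM in KO, a log2 change of -0.51 ± 0.12 (SE), adjusted p = 0.00222. Slc16a7 (MCT2), with a higher affinity for pyruvate, rose from 8.86 ± 1.13 to 15.9 ± 1.85 CPM (log2 0.84, SE 0.16). Among members of less known substrate, Slc16a13 fell from 12.03 ± 1.203 to 2.66 ± 0.808 CPM (log2 -2.17, SE 0.22), and Slc16a9 rose from 1.83 ± 0.407 to 8.65 ± 0.778 CPM (log2 2.24, SE 0.23). Slc16a14 had 2, 1 and 4 counts in Con and 29, 27 and 36 in KO (log2 4.29, SE 0.42). Bsg, basigin, the partner that brings MCT1 to the membrane, went from 999 ± 29.99 to 349.9 ± 20.3 CPM (log2 -1.51, SE 0.08).

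Among the other sugar and vitamin carriers, Slc5a6, which takes up biotin and pantothenate with sodium, fell from 10.4 ± 0.449 to 4.202 ± 0.922 CPM (log2 -1.31, SE 0.20). The inositol carrier Slc5a11 had 6, 11 and 6 counts in Con and 25, 19 and 22 in KO (log2 2.15, SE 0.33). Slc37a2, a sugar phosphate exchanger in the endoplasmic reticulum membrane, dropped from 68.6 ± 14.2 to 27.8 ± 4.89 CPM (log2 -1.31, SE 0.18), and Slc37a1 did not pass, at 31.1, 28.9 and 23.8 CPM in Con and 35.3, 26.5 and 32.7 CPM in KO. In this class as many tested genes were higher as lower (6 each of 13), beside 39.6% and 42.4% of all genes tested. Its median of 0.17 was -0.19 when scaled by library size alone, while that of all genes went from -0.06 to -0.41.

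Zinc importers of Slc39, the ZIP family, were lower throughout. These proteins move zinc, and some of them iron or manganese, into the cytosol from outside the cell or from organelles. All 10 tested Slc39 genes fell (median -1.83 on the log2 scale), beside 42.4% of all genes tested. They did so with each of the 4 scalings, under which 3393 to 4476 of all 8358 genes tested were lower. Slc39a4 (gene ID 72027) was at 129, 177 and 177 CPM in Con and at 3.505, 3.82 and 3.99 CPM in KO, a log2 change of -5.41 ± 0.18 (SE), adjusted p = 1.07e-08. Slc39a4 encodes ZIP4, a zinc importer of the plasma membrane, and its KO libraries were 42.6-fold lower and close to each other. Slc39a2 had 164, 182 and 198 counts in Con and 2, 5 and 10 in KO (log2 -4.32, SE 0.35). Slc39a6 (gene ID 106957) was at 117, 121 and 127 CPM in Con and at 18.3, 22.1 and 25.3 CPM in KO, a log2 change of -2.48 ± 0.12 (SE), adjusted p = 8.10e-08. Slc39a6 and Slc39a10 form plasma membrane zinc importers, and Slc39a10 went from 71.4 ± 1.98 to 17.3 ± 2.45 CPM (log2 -2.05, SE 0.11). Slc39a14, a carrier of zinc, manganese and iron, went from 36.1 ± 0.963 to 7.24 ± 1.64 CPM (log2 -2.32, SE 0.15).

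Slc39 members differed in the size of their falls. Slc39a7, which releases zinc from the endoplasmic reticulum, was at 238, 244 and 265 CPM in Con and 161, 179 and 224 CPM in KO, a log2 change of -0.41 ± 0.12 (SE), adjusted p = 0.0104. Slc39a8, a zinc and manganese importer, and Slc39a9, a zinc carrier of the Golgi, were at -0.57 (SE 0.14) and -0.60 (SE 0.08). Slc39a1 and the Golgi carrier Slc39a13 lay between, at -1.27 (SE 0.09) and -1.61 (SE 0.13). No KO library reached the lowest Con library in any of the 10 genes, and KO lay wholly below Con in 44% of all genes tested.

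Zinc exporters of Slc30, the ZnT family, carry zinc out of the cytosol. Slc30a1, the exporter of the plasma membrane, was the single gene that rose among the 21 tested in Slc11, Slc30, Slc31, Slc39 and Slc41. Of these 21, 19 were lower, while of all genes tested 42.4% were lower and 39.6% higher. Slc30a1 (gene ID 22782) was at 7.35, 12.3 and 12.6 CPM in Con and at 21.6, 22.2 and 30.5 CPM in KO, a log2 change of 1.20 ± 0.22 (SE), adjusted p = 6.97e-04. Con replicate 1 was the lowest, and each KO library lay above each Con library. Slc30a4 (gene ID 22785) was at 51.4, 53.7 and 54.6 CPM in Con and at 6.07, 11.96 and 13.6 CPM in KO, a log2 change of -2.34 ± 0.22 (SE), adjusted p = 9.16e-06. Slc30a4 loads zinc into endosomal vesicles, and KO replicate 1 was the lowest of all 6 libraries. Slc30a5, Slc30a6 and Slc30a7, which supply zinc to the secretory pathway, had smaller falls of -0.57 (SE 0.11), -0.88 (SE 0.11) and -0.61 (SE 0.10). Mt1, metallothionein, a zinc-binding protein, was at 108, 134 and 146 CPM in Con and 69.4, 62.3 and 71.9 CPM in KO (log2 -0.93, SE 0.12), and Mtf1, the zinc-sensing factor that acts on Mt1 and Slc30a1, did not pass (log2 -0.16, SE 0.08).

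Promoters of Slc30a1 and Slc30a4 are shown because the genes moved apart while both hold letters of the metal response core, TGCACNC or TGCGCNC on either strand. The windows are chr1:191906531-191906780 (+ strand) and chr2:122702664-122702913 (- strand) in GRCm38.p6, 250 bases before the RefSeq start site, 5′ to 3′ on the gene's strand, with the matches in capitals.
Slc30a1: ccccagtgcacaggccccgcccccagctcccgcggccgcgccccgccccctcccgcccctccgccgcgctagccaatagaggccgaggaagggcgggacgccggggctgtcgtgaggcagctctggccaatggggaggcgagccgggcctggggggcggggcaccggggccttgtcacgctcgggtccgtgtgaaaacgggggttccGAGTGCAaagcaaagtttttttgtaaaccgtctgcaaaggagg
Slc30a4: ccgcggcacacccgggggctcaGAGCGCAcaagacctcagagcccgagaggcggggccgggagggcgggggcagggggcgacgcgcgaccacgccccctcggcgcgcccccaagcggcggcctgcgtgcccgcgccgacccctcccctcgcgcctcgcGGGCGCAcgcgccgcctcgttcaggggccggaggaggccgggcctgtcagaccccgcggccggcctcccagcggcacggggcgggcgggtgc
The match in Slc30a1 starts 43 bases before the start site, and those in Slc30a4 start 228 and 92 bases before it. The core was in 4 of 15 windows of lower metal carriers (26.7%), in 20 of 64 of all lower members (31.2%) and in 12 of 36 of higher ones (33.3%), beside 28.6% of tested genes and 21.3% of all RefSeq windows.

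The tested copper carriers of Slc31 and iron carriers of Slc11 fell, 2 genes in each family. Slc31a1 (gene ID 20529) was at 315, 347 and 344 CPM in Con and at 56.5, 50.8 and 58.02 CPM in KO, a log2 change of -2.60 ± 0.09 (SE), adjusted p = 1.46e-08. Slc31a1 encodes CTR1, the copper importer, and its relative Slc31a2 went from 258 ± 21.7 to 105 ± 14.98 CPM (log2 -1.29, SE 0.11). Slc11a2 (DMT1), which brings iron out of endosomes, was at 133, 163 and 169.97 CPM in Con and 27.6, 27.4 and 43.6 CPM in KO, a log2 change of -2.24 ± 0.18 (SE), adjusted p = 3.82e-06. Slc11a1 (NRAMP1), the metal pump of phagosomes in macrophages and neutrophils, was at 219, 318 and 309.9 CPM in Con and 78.9, 90.1 and 108 CPM in KO, a log2 change of -1.62 ± 0.16 (SE), adjusted p = 1.44e-05. Con replicate 1 was the lowest Con library for Slc11a1, as for the macrophage markers, which summed to 20398 CPM there, up to 30279 CPM in the other Con libraries and 605 to 1089 CPM in KO. The part of macrophages in this fall was not tested. The magnesium carrier gene Slc41a2 fell from 42.9 ± 7.23 to 6.43 ± 1.16 CPM (log2 -2.74, SE 0.18), and Slc41a3 did not pass, at 29.9, 21.1 and 24.3 CPM in Con and 24.9, 18.6 and 24.6 CPM in KO.

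**Figure D4:**
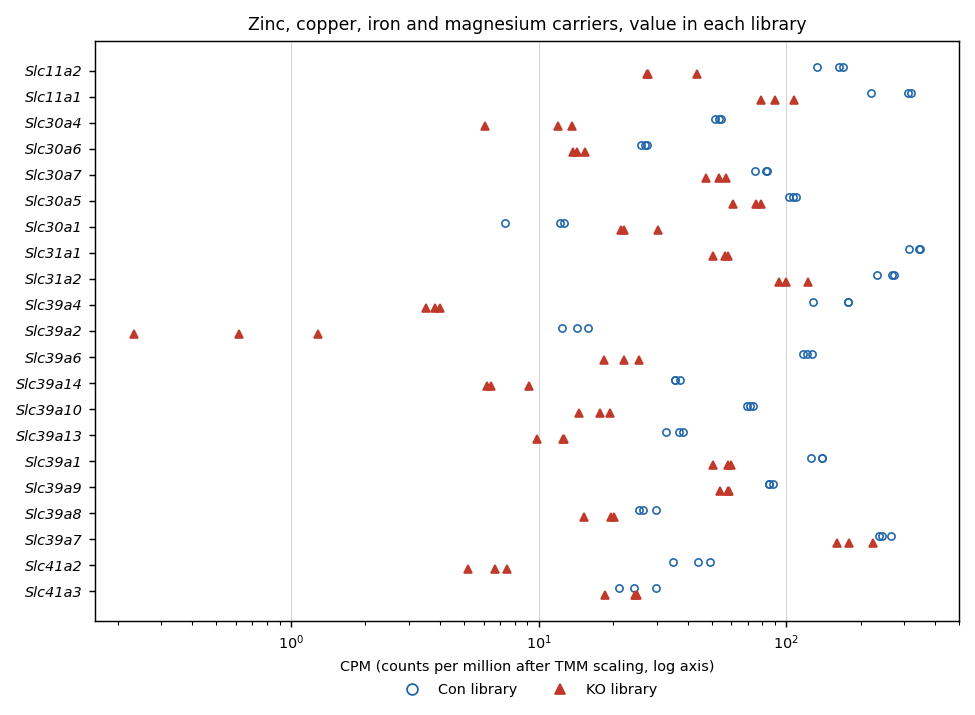
CPM in each library (horizontal log axis) of the tested zinc, copper, iron and magnesium carriers, with open circles for Con and triangles for KO, ordered by family and fold change. Every Slc39, Slc31 and Slc11 gene is lower in each KO library than in any Con library, and Slc30a1 is higher. Of all genes tested, KO lay wholly below Con in 44% and wholly above in 40.5%.

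Of 21 tested carriers of inorganic ions, 13 were lower and 5 higher, beside 42.4% and 39.6% of all genes tested (15 and 5, beside 4476 and 2488 of 8358 genes, when scaled by library size alone). Slc12 couples chloride to sodium or potassium and sets cell volume. Slc12a4 (gene ID 20498) was at 40.4, 44.9 and 46.9 CPM in Con and at 10.05, 9.25 and 11.3 CPM in KO, a log2 change of -2.11 ± 0.12 (SE), adjusted p = 2.81e-07. Slc12a4 encodes KCC1, a potassium-chloride carrier, and every KO library lay below every Con library. Slc12a9 rose from 15.05 ± 0.651 to 49.6 ± 7.67 CPM (log2 1.72, SE 0.13), and Slc12a2 (NKCC1), which loads chloride into the cell, did not pass, with 12.4, 9.82 and 10.2 and 8.88, 8.14 and 11.8 CPM.

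Sodium-proton exchangers of Slc9 set the pH of cytosol and organelles. Slc9a9 (gene ID 331004) was at 6.21, 4.24 and 6.56 CPM in Con and at 28.97, 39.2 and 44.8 CPM in KO, a log2 change of 2.73 ± 0.21 (SE), adjusted p = 1.73e-06. Slc9a9 works in late endosomes, while Slc9a8 of the Golgi fell, from 64.5 ± 1.55 to 37.3 ± 5.596 CPM (log2 -0.79, SE 0.11). Slc9a4 had 14, 26 and 22 counts in Con and 0, 1 and 4 in KO (log2 -2.91, SE 0.67). In Slc4, the sodium-bicarbonate carrier Slc4a7 fell from 85.6 ± 4.29 to 23.6 ± 3.65 CPM (log2 -1.86, SE 0.12), and Slc4a3, with 16, 19 and 15 and 1, 2 and 2 counts, fell too. Slc4a2 (AE2), a chloride-bicarbonate exchanger, was near 0 change, at 71.3, 77.5 and 75.6 CPM in Con and 79.7, 63.3 and 78.6 CPM in KO (log2 -0.02, SE 0.10), and its sign depended on the setting.

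Phosphate importers Slc20a1 and Slc20a2, which also serve retroviruses as receptors, went from 249 ± 34.6 to 125 ± 28.9 CPM (log2 -1.002, SE 0.17) and from 22.01 ± 1.96 to 14.02 ± 0.822 CPM (log2 -0.65, SE 0.12). The calcium exchangers Slc24a3 and Slc24a5 fell by 2.29 and 1.52 on the log2 scale, and the sodium-calcium exchanger Slc8a1 did not pass, at 19.8, 19.6 and 19.03 CPM in Con and 18.8, 25.4 and 35.1 CPM in KO, but did without KO replicate 1 (0.63, adjusted p = 0.00381). In the anion exchanger family Slc26, Slc26a4 (pendrin) had 48, 24 and 25 counts in Con and 0, 0 and 0 in KO, at least 20.6-fold lower with the empty group set to 3 counts in all. The sulfate carrier Slc26a2 fell from 14.5 ± 0.731 to 3.42 ± 1.48 CPM (log2 -2.08, SE 0.25), and Slc26a9 had 34, 25 and 14 and 1, 3 and 1 counts (log2 -3.14, SE 0.57). Slc26a8 and Slc26a10 rose at low levels, by 1.98 (SE 0.38) and 1.25 (SE 0.20).

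Carriers of organic molecules held several of the steepest changes. Slc22a15 (gene ID 242126) was at 3.86, 3.14 and 3.44 CPM in Con and at 85.5, 74.98 and 82.5 CPM in KO, a log2 change of 4.53 ± 0.12 (SE), adjusted p = 4.64e-09, 23.2-fold higher. Slc22a15 belongs to the organic ion carriers, as does Slc22a20, which had 0, 0 and 0 counts in Con and 23, 17 and 16 in KO, at least 29.4-fold higher with the empty group set to 3 counts in all. In the same family Slc22a3 (OCT3), a carrier of monoamines, was at 43.5, 30.2 and 32.7 CPM in Con and 4.91, 4.32 and 3.86 CPM in KO (log2 -3.02, SE 0.19). The ergothioneine carrier Slc22a4 fell from 31.3 ± 4.48 to 12.6 ± 1.89 CPM (log2 -1.31, SE 0.16). Slc22a17 did not pass, although its KO counts of 16, 16 and 27 scale to values above those of Con.

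Slc18a2 (gene ID 214084) was at 299, 217 and 215 CPM in Con and at 15.9, 14.4 and 17.9 CPM in KO, a log2 change of -3.92 ± 0.16 (SE), adjusted p = 3.74e-08. Slc18a2 encodes VMAT2, which loads histamine and other monoamines into granules of mast cells, basophils and neurons, and Con replicate 1 was the highest. Its relative Slc18a1 had 20, 31 and 34 counts in Con and 8, 10 and 12 in KO, overlapping groups after scaling, with an adjusted p of 0.044 that ran from 0.0584 to 0.163 under 8 of the 15 alternatives that tested it, among them each fit without Con replicate 2 or 3 or KO replicate 1 or 2. In Slc17, the lysosomal sialic acid exporter Slc17a5 fell from 32.01 ± 2.35 to 9.14 ± 0.888 CPM (log2 -1.81, SE 0.13) and the vesicular nucleotide carrier Slc17a9 rose from 25.1 ± 1.39 to 65.5 ± 12.8 CPM (log2 1.38, SE 0.14).

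The ascorbate carrier Slc23a2 and the fatty acid carrier Slc27a1 each fell while a relative rose. Slc23a2 (gene ID 54338) was at 181, 235 and 239 CPM in Con and at 19.3, 23.2 and 31.4 CPM in KO, a log2 change of -3.15 ± 0.18 (SE), adjusted p = 4.08e-07. Slc23a2 brings vitamin C into most cells, and Slc23a3, of the same family, had 4, 7 and 9 counts in Con and 28, 26 and 22 in KO (log2 2.55, SE 0.33). Slc27a1 (gene ID 26457) was at 73.2, 109 and 118 CPM in Con and at 10.2, 9.62 and 15.95 CPM in KO, a log2 change of -3.08 ± 0.24 (SE), adjusted p = 2.86e-06. Slc27a4 (gene ID 26569) was at 51.4, 57.5 and 57.6 CPM in Con and at 276, 211 and 282 CPM in KO, a log2 change of 2.21 ± 0.12 (SE), adjusted p = 2.16e-07. Both Slc27 proteins activate long-chain fatty acids to acyl-CoA as they are taken up. Slc27a3 rose from 2.54 ± 0.321 to 5.66 ± 1.8995 CPM (log2 1.14, SE 0.28).

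Folate, thiamine and riboflavin carriers fell. The folate carrier Slc19a1 went from 29.3 ± 0.896 to 11.96 ± 3.26 CPM (log2 -1.29, SE 0.18), the thiamine carrier Slc19a2 from 35.4 ± 0.853 to 11.3 ± 2.68 CPM (log2 -1.66, SE 0.16), and the riboflavin carriers Slc52a2 and Slc52a3 fell by 1.10 and 1.57 on the log2 scale. Slc46a1, the proton-coupled folate and heme carrier, had 56, 84 and 76 counts in Con and 3, 12 and 10 in KO (log2 -2.44, SE 0.39), while its lysosomal relative Slc46a3 rose from 8.84 ± 0.814 to 17.7 ± 3.86 CPM (log2 0.996, SE 0.18). Slc48a1 (HRG1), which returns heme from lysosomes to the cytosol, was at 282, 329 and 317 CPM in Con and 184, 222 and 226 CPM in KO (log2 -0.55, SE 0.10).

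Nucleoside carriers were mixed. Slc28a2 rose from 93.1 ± 9.204 to 179 ± 40.9 CPM (log2 0.94, SE 0.15) and Slc28a2b from 1.66 ± 0.366 to 6.39 ± 2.68 CPM (log2 1.94, SE 0.34). They are near copies with counts that are not whole, so reads may be split between them. Slc28a3 had 25, 22 and 17 counts in Con and 0, 1 and 2 in KO, 13.6-fold lower (95% counting interval 4.44 to 67.5). The equilibrative carrier Slc29a1 (ENT1) did not pass, at 61.3, 65.7 and 66.4 CPM in Con and 66.1, 62.9 and 71.1 CPM in KO, and Slc29a2 fell (log2 -1.21, SE 0.24). The urea carrier of red cells, Slc14a1, was lower in KO, at 84.3, 75.3 and 79.2 CPM in Con and 36.7, 32.7 and 32.03 CPM in KO (log2 -1.23, SE 0.09). The 9 erythroid markers were all higher in KO, and the part of red cell precursors in the level of Slc14a1 was not tested. Slc13a3, a dicarboxylate carrier, had 1, 2 and 2 and 24, 23 and 26 counts (log2 4.40, SE 0.39). Slc10a3 (log2 -0.44, SE 0.16), Slc44a4 (log2 -1.56, SE 0.40) and the choline-like carrier Slc44a2 (log2 0.32, SE 0.12) passed as well, and Slc44a2 stood at -0.04 when scaled by library size alone. Slc44a2 lost its call without Con replicate 1 (adjusted p = 0.0608), Con replicate 3 (0.0567) or KO replicate 3 (0.0804), and Slc10a3 without Con replicate 2 (0.0770), Con replicate 3 (0.0983) or KO replicate 2 (0.0766). Of the 31 tested carriers of organic molecules, 18 were lower and 11 higher, beside 42.4% and 39.6% of all genes tested.

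Carriers of the endoplasmic reticulum and Golgi bring activated sugars and acetyl-CoA to enzymes in these compartments. Slc35a5 rose alone, at 29.6, 30.1 and 32.5 CPM in Con and 129, 99.03 and 104 CPM in KO, a log2 change of 1.85 ± 0.12 (SE), adjusted p = 4.43e-07. The UDP-galactose carrier Slc35a2 fell from 62.3 ± 1.26 to 29.4 ± 3.47 CPM (log2 -1.08, SE 0.10) and the acetyl-CoA carrier Slc33a1 from 61.1 ± 5.79 to 28.3 ± 2.26 CPM (log2 -1.11, SE 0.11). Slc35a4 was at -0.30 (SE 0.07). The UDP-N-acetylglucosamine carrier Slc35a3 did not pass, although its KO libraries (66.4, 66.7 and 53.8 CPM) lay below its Con libraries (72.4, 76.7 and 70.4 CPM), and it passed without KO replicate 1 (adjusted p = 0.0415) or 2 (0.0429).

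Mitochondrial carriers, the Slc25 family, move nucleotides, phosphate, metabolites and iron across the inner mitochondrial membrane, with a few members in other membranes. Of 30 tested, 13 were higher and 11 lower, beside 39.6% and 42.4% of all genes tested. Scaled by library size alone, 9 were higher and 15 lower, beside 2488 and 4476 of 8358 genes. The citrate carrier Slc25a1, which supplies cytosolic acetyl-CoA for lipid synthesis, had the smallest adjusted p of the family. Slc25a1 (gene ID 13358) was at 176, 180.4 and 186 CPM in Con and at 34.2, 35.4 and 35.4 CPM in KO, a log2 change of -2.37 ± 0.08 (SE), adjusted p = 1.18e-08. Slc25a4 (gene ID 11739) was at 153, 171 and 167 CPM in Con and at 78.6, 88.7 and 77.8 CPM in KO, a log2 change of -1.002 ± 0.09 (SE), adjusted p = 4.23e-06. Slc25a4 and Slc25a5 exchange ADP for ATP, and Slc25a5 did not pass, at 527, 495 and 509 CPM in Con and 472, 555 and 483 CPM in KO (log2 -0.02, SE 0.09). The phosphate carrier Slc25a3 was at 496, 505 and 511 CPM in Con and 582, 629.6 and 619 CPM in KO (log2 0.28, SE 0.08), and at -0.08 when scaled by library size alone. The dicarboxylate carrier Slc25a10 fell from 49.3 ± 4.16 to 18.8 ± 1.71 CPM (log2 -1.39, SE 0.11). Slc25a43 had 86, 102 and 92 counts in Con and 3, 8 and 6 in KO (log2 -3.37, SE 0.31).

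Among the Slc25 genes that rose were Slc25a37, Slc25a28 and Slc25a38, described together after their values were seen. Slc25a37 (gene ID 67712) was at 169, 194 and 191 CPM in Con and at 374, 347 and 457 CPM in KO, a log2 change of 1.09 ± 0.12 (SE), adjusted p = 1.49e-05. Slc25a37 encodes mitoferrin 1, the iron importer of red cell precursors. Slc25a28 (mitoferrin 2), its counterpart in other cells, rose from 25.1 ± 2.04 to 54.3 ± 7.12 CPM (log2 1.12, SE 0.12), and Slc25a38, the glycine carrier that feeds heme synthesis, was at 23.2, 17.4 and 20.5 CPM in Con and 65.4, 56.2 and 67.03 CPM in KO, a log2 change of 1.62 ± 0.12 (SE), adjusted p = 1.66e-06. The groups did not overlap in any of the 3, and KO lay above Con in 40.5% of all genes tested. Erythroid markers summed to 66.1 to 122 CPM in Con and to 16576 to 23780 CPM in KO, and their part in these rises was not tested.

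The steepest rise in Slc25 was that of Slc25a21, a carrier of oxodicarboxylates, with 3, 0 and 0 counts in Con and 88, 76 and 88 in KO, 132-fold higher (95% counting interval 44.7 to 645). All 3 Con counts came from Con replicate 1. The basic amino acid carrier Slc25a29 rose from 0.779 ± 0.311 to 5.16 ± 0.968 CPM (log2 2.71, SE 0.32). Slc25a24, which exchanges ATP-magnesium for phosphate, and Slc25a45 rose by 1.12 (SE 0.12) and 1.10 (SE 0.10), and Slc25a27 by 1.05 (SE 0.24). Slc25a25, of the same function as Slc25a24, fell from 42.1 ± 1.67 to 28.4 ± 7.696 CPM (log2 -0.57, SE 0.17). Smaller rises were those of Slc25a40 (log2 0.70, SE 0.09), the NAD carrier Slc25a51 (log2 0.60, SE 0.11), Slc25a53 (log2 0.60, SE 0.24) and the acylcarnitine carrier Slc25a20 (log2 0.44, SE 0.12). With library size as the only scaling these last 3 did not pass (0.25, 0.24 and 0.09), and Slc25a53 did not without any 1 library other than Con replicate 1 (adjusted p from 0.0552 to 0.140).

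Carriers of the malate-aspartate shuttle and of glutamate were lower or did not pass. The aspartate-glutamate carriers Slc25a12 and Slc25a13 were at -0.32 (SE 0.10) and -0.75 (SE 0.18), and Slc25a12 lost its call without Con replicate 1 (-0.19, adjusted p = 0.0845). The oxoglutarate carrier Slc25a11 was at -0.21 (SE 0.09) with an adjusted p of 0.0512, and passed without KO replicate 1 (-0.28, adjusted p = 0.0152). The glutamate carrier Slc25a22 fell, at -0.65 (SE 0.13), as did the peroxisomal member Slc25a17 (log2 -0.46, SE 0.11) and the outer membrane protein Slc25a46 (log2 -0.24, SE 0.09), whose adjusted p ran from 0.0592 to 0.159 under the 9 alternatives in which it did not pass, the fits without each library but KO replicate 2 among them. Slc25a26, Slc25a32, Slc25a33 and Slc25a42 did not pass, of which Slc25a26 did without KO replicate 3 (-0.56, adjusted p = 0.0380). In Slc25a33, a pyrimidine nucleotide carrier, the KO libraries ran from 10.7 to 30.2 CPM around Con values of 18.6, 16.7 and 17.2 CPM.

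**Figure D5:**
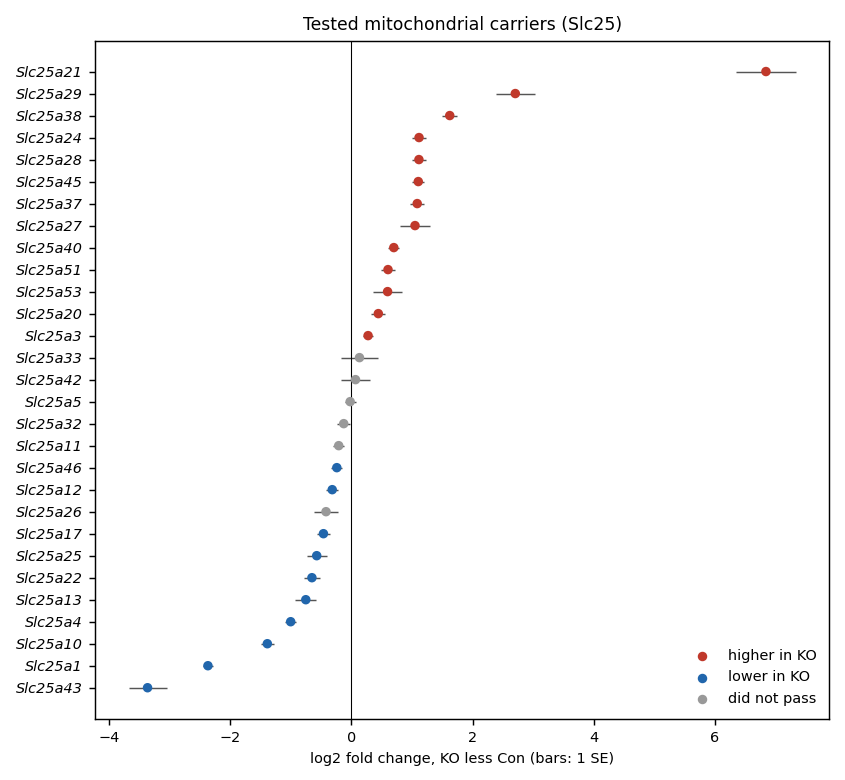
Log2 fold change (KO less Con, horizontal axis) of tested Slc25 genes, 1 of the 30 not drawn, with bars of 1 standard error, coloured by call. Slc25a43 and Slc25a1 lie lowest, Slc25a21 lies highest, with Slc25a29 next.

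Among 107 members with both group means of at least 5 CPM, the coefficient of variation had a median of 6.69% over the Con libraries and 14.7% over the KO libraries, and it was wider in KO in 86. The widest in KO was Slc25a33 (51.8%), followed by Slc30a4 (37.6%) and Slc3a2 (31.9%), and in Con Slc7a5 (29.3%). The same figures were not worked out for all genes, so whether the wider KO spread is particular to solute carriers was not tested. Con replicates 2 and 3 were unusually close across genes in general, as described above. The part of this closeness in the narrower Con spread was not tested.

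Slc9a3r1 and Slc9a3r2 fit the naming rule but encode scaffold proteins that bind carriers. They rose from 187 ± 4.93 to 286 ± 20.95 CPM (log2 0.62, SE 0.08) and from 6.61 ± 0.748 to 14.5 ± 4.02 CPM (log2 1.13, SE 0.22). The 22 untested members had at most 26 counts in any library. They included Slc1a1, Slc2a5, Slc2a13, Slc4a4, Slc4a5, Slc4a10, Slc6a3, Slc6a17, Slc6a19, Slc6a20a, Slc7a14, Slc8a2, Slc10a6, Slc12a3, Slc17a7, Slc24a2, Slc25a2, Slc25a18, Slc29a4, Slc30a3 and Slc38a3. Of these, 3 had no count in Con (Slc4a10 and Slc24a2 among them) and 1 had none in KO (Slc38a3).

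Other membrane transporters were looked at for comparison. Beside the counts that follow, 39.6% of all genes tested rose and 42.4% fell. The median of all genes was -0.06 on the log2 scale (-0.41 with library size as the only scaling). Of 25 tested ABC transporters, which pump with ATP, 9 rose and 10 fell, and their median was 0.13 on the log2 scale (-0.23 with library size as the only scaling). Of 25 tested carriers of the same superfamily with symbols of another form, 8 rose and 15 fell (median -0.38). Of 6 partner proteins of carriers, 3 rose and 3 fell. Their difference from the Slc genes was not tested.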

How the data were processed

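RNA of 6 bone marrow samples was made into libraries with a BGI mRNA kit, per the labels' protocols. Per the file headers, the deposited values are estimated counts of reads, 1 column per library and 1 gene per line, not scaled. Values of 1449 of 9295 genes (18 of the members) are not whole, so expected counts were rounded before testing. GRCh38, which is a human assembly, is the build in the submitters' processing notes, while gene IDs and symbols are of mouse. Aligner and counter: not given in the sources used here. Every column was used (0 left out). Some members are counted but not reported here by name. Genes were tested in edgeR 4.0.16 (R 4.3.3) with TMM scaling, filterByExpr and a robust quasi-likelihood fit without covariates, two-sided, with Benjamini-Hochberg adjustment over 8358 genes at 0.05. SE is the absolute log2 fold change over the root of F. The test was tried on simulated data with a small set of changed genes, as many up as down. That does not cover data in which 82% of genes tested pass. A group at 0 was set to a floor of 3 counts, and a ratio against 1 to 3 counts carries an exact 95% interval. Both cover counting error only. Promoters are RefSeq's (GRCm38.p6). Every member's gene ID was found in RefSeq, which has 346 protein-coding symbols of this form. Named genes are, per family, the 3 with the highest mean CPM, the 4 with the largest change among called genes without overlap, and every member of families of up to 4. Others stand in counts or ranges, and those given with values of their own beyond these were chosen after their values were seen. Members and lists were chosen with earlier results of these data known. Alternatives were DESeq2 1.42.0, limma-voom (limma 3.58.1), 3 other scalings, 2 other filters, a fit that is not robust, a replicate block, each library left out and Con replicates 2 and 3 summed.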

Additional observations from a re-analysis of the deposited data

How the results depend on the processing

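Counts of lower and higher solute carriers stayed within 1.5 times the reported counts under all 16 alternatives. Outside Slc25, leaving out a library gave 111 to 116 changed genes, and within Slc25 22 to 23. Over all genes it gave 6485 to 6855, and library size as the only scaling gave 2488 higher and 4476 lower. Of 137 called members, 126 kept call and direction in every alternative that tested them. The other 11 were Slc7a7, Slc10a3, Slc18a1, Slc36a2, Slc44a2, Slc25a3, Slc25a12, Slc25a20, Slc25a46, Slc25a51 and Slc25a53, and in 0 did a call turn to a call of the other sign. The sign of called members turned with library size only in Slc25a3 (-0.0795) and Slc44a2 (-0.0375). Among members that did not pass, Slc4a2 changed sign with RLE scaling (0.0359), the stricter filter of 50 counts in 3 libraries (0.0185), DESeq2 (0.0359), Con replicates 2 and 3 summed (7.14e-05) and ran from -0.0793 to 0.0791 as each library was left out. Slc25a5 changed sign with RLE scaling (0.0344), the stricter filter (0.0160) and DESeq2 (0.0344), and ran from -0.0985 to 0.0220 as each library was left out. Slc37a1 (-0.19) turned with library size only, Slc29a1 with library size (-0.31, now a lower call with an adjusted p of 0.00599) and upper-quartile scaling (-0.0375), Slc25a33 with library size (-0.22), limma-voom (-0.0060) and without KO replicate 3 (-0.35), Slc25a42 with library size (-0.29), upper-quartile scaling (-0.0181) and without Con replicate 2 (-0.11) or KO replicate 2 (-0.0621), and Slc41a3 ran from -0.241 to 0.0081 as each library was left out. The cause was not tested. The labels share replicate numbers. Deviations of same-numbered libraries from their group means had correlations of -0.00166, 0.0277 and -0.00374, beside -0.0571 to 0.0456 for the other pairs of Con with KO. With 3 libraries in each group, and Con replicates 2 and 3 so alike, this cannot tell whether same-numbered libraries share more than a number. The replicate block gave 114 changed genes outside Slc25, 24 within it and 6766 over all genes. Depth limits most the 22 untested members, with at most 26 counts in any library.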
